A study of Mus musculus with 24 samples.

Results

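Solute carriers (Slc) are the membrane transporters described here, in brown and white fat cells of the mouse at day 4 and day 7 of primary culture. A probe set was taken as a member when the platform annotation gave it a single symbol of Slc followed by a digit, with Slc27a1 left out. This gave 184 of the 12488 probe sets on the array, for 150 genes of the 8252 with a single symbol, of which 123 probe sets for 108 genes were bright enough to test. The symbol rule also caught Slc9a3r1, Slc9a3r2 and Slc4a1ap, which encode adaptor proteins rather than carriers and are kept as a class of their own. Gene expression was measured with 24 Affymetrix Murine Genome U74Av2 arrays, 1 per sample. The brown cells gave 5 arrays at day 4 and 5 at day 7, and the white cells 8 arrays at day 4 and 6 at day 7. Per the labels, day 4 cells were not yet differentiated and day 7 cells were. No genotype, strain, age or sex of the mice, and no fat depot, is stated in the labels, and none names a treatment or a transgene.

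Solute carriers move sugars, amino acids, nucleotides, vitamins and ions across membranes by facilitated diffusion, exchange or coupling to an ion gradient. Most members sit in the plasma membrane or in organelles, and those of the Slc25 family lie mainly in the inner mitochondrial membrane, where they pass nucleotides, phosphate, carnitine esters and carboxylates into and out of the matrix. Fat cells take up glucose through the insulin-responsive carrier Slc2a4 (GLUT4). Brown fat, which is dense in mitochondria, burns fatty acids for heat.

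Brown adipocyte markers followed the labels. The mean log2 signal of 6 such markers ran from 5.59 to 7.32 and from 7.03 to 8.65 on the brown arrays of day 4 and day 7, against 3.85 to 4.66 and 4.34 to 4.77 on the white arrays, where the brown regulator Zic1 was at the signal floor on every array. The mean of 4 white-associated markers ran from 4.67 to 5.85 at brown day 4 and 4.81 to 5.28 at brown day 7. In white cells it ran from 6.09 to 6.98 and 5.97 to 6.77. Of these 4, 3 were lower in brown cells at either day (limma, adjusted p below 0.05). The remaining 1 went the other way, higher in brown cells by 3.82 and 3.47 on the log2 scale. The 6 adipocyte markers measured ran from 7.33 to 9.07 at brown day 4 and 9.24 to 9.83 at brown day 7, and from 7.74 to 9.49 and 9.74 to 10.4 in white cells. Median signal per array was 41.9 to 59.0, and the number of arrays limits the precision. On the first principal component of all 8397 tested probe sets, with 30% of the variance, white day 4 arrays 45 and 51 lay at 12 and 10, between the other white arrays (at most -5.4) and the brown arrays (at least 15.8). The ratio of 3' to 5' signal of Gapdh, a gauge of RNA degradation, was 1.36 ± 0.204 (SD, n = 6) at white day 7, against 0.943 ± 0.0955 (SD, n = 8) at white day 4, 0.884 ± 0.0825 (SD, n = 5) at brown day 4 and 0.889 ± 0.0379 (SD, n = 5) at brown day 7. The labels do not tell to which mice or culture dishes the arrays of 1 group go back, so a p-value here speaks of the spread from array to array alone, and that spread could be technical. Every brown array number precedes every white one, so a difference in handling and the cell type cannot be told apart.

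The comparison of day 7 with day 4 asks which carriers change as the cultured cells mature. In brown cells Slc25a20 and Slc7a7 rose, and Slc38a4, Slc7a5, Slc35b2, Slc10a3 and Slc35b1 fell. These were 7 of the 108 Slc genes (6.48%, against 13% of all 6281 genes), called in limma at a Benjamini-Hochberg adjusted p below 0.05. By probe set the count was 7 of 123 (2 higher and 5 lower), beside a background of 12.1% of all probe sets called, 6% higher and 6.05% lower. The median log2 difference of the Slc genes was 0.02, as it was over all genes. Amino acid carriers held 3 of the calls among 18 genes, and nucleotide sugar and related Golgi or endoplasmic reticulum (ER) carriers held 2 among 9. The 15 metal carriers, the 7 sugar carriers and the 9 vitamin, choline, heme and folate carriers held none.

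Slc25a20 carries acylcarnitines into mitochondria for oxidation. Its signal on the brown arrays was 298, 419, 206, 296 and 302 at day 4 and 594, 678, 374, 458 and 477 at day 7. Only the highest day 4 array passed the lowest day 7 array, and the log2 difference was 0.77 ± 0.18 (SE of the limma fit, as after each ± below unless SD is written, adjusted p = 0.00503). In white cells the gene gave 0.07 ± 0.15 (adjusted p = 0.781), with a 95% interval of -0.25 to 0.39. The white arrays ran from 215 through a median of 263 to 326 at day 4, and from 205 through 272 to 352 at day 7.

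Slc7a7 is a light chain that pairs with Slc3a2 to exchange cationic and neutral amino acids, and macrophages are known to express it. It read 5.88, 9.90, 28.1, 20.5 and 7.55 at brown day 4 and 58.5, 25.5, 57.9, 63.2 and 35.2 at brown day 7. The groups overlapped in 1 array on each side. The log2 difference was 1.79 ± 0.50 (adjusted p = 0.0173), but 2 day 4 arrays lay at the floor of 8.21, and a floor raised to the 40th percentile gave 0.68 (adjusted p = 0.00816). The call ended without brown day 4 array 19 (1.62, adjusted p = 0.0510) and without brown day 7 array 12 (1.67, adjusted p = 0.0517). In white cells the mean log2 signal of Slc7a7 was 4.06 ± 0.84 (SD) at day 4 and 4.85 ± 0.98 (SD) at day 7, and it was not called. The mean log2 signal of 8 macrophage markers ran from 4.34 to 4.60 at brown day 4 and from 4.71 to 5.13 at brown day 7, with Itgam at the floor on every array of both groups. Their part in the rise of Slc7a7 was not tested.

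Slc7a5 (LAT1), which imports leucine and other large neutral amino acids with Slc3a2, fell in brown cells by 0.77 ± 0.17 on the log2 scale (adjusted p = 0.00347). Its signal was 300, 230, 296, 196 and 278 at day 4 and 137, 159, 176, 182 and 109 at day 7, with no overlap. Among all probe sets, 9.72% had no overlap between the brown days, and among the Slc genes 3 did (Slc7a5, Slc38a4 and Slc35b2). In white cells Slc7a5 gave 0.08 ± 0.15 (adjusted p = 0.755, 95% interval -0.23 to 0.38). Its partner Slc3a2, the shared heavy chain of these exchangers, gave -0.32 ± 0.14 in brown cells (adjusted p = 0.159) and fell in white cells. Slc10a3, an orphan of the bile acid carrier family, fell in brown cells by 0.49 ± 0.15 (adjusted p = 0.0300), from 193, 200, 254, 240 and 284 to 149, 147, 155, 186 and 195.

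In white cells Slc2a4, Slc25a36 and Slc2a3 rose and 9 genes fell between day 4 and day 7. The 12 called genes were 11.1% of the Slc genes, against 19.5% of all genes. By probe set, 14 of 123 were called (3 higher, 11 lower), beside a background of 19% (8.36% higher, 10.6% lower). The medians were -0.01 for the Slc genes and 0.02 for all genes. By class the calls were 3 of 7 sugar carriers, 3 of 9 nucleotide sugar and related carriers, 2 of 18 amino acid carriers, 2 of 18 Slc25 carriers, the nucleoside carrier Slc29a1 and the adaptor Slc9a3r1. All 12 calls were lost when the Gapdh 3' to 5' ratio was a covariate, where the values moved to between -0.99 (Slc38a4, adjusted p = 0.106) and 0.45 (Slc2a4, adjusted p = 0.858) and Slc35b2 to -0.003 (adjusted p = 0.999). Since that ratio itself rose from white day 4 to day 7, RNA integrity and day cannot be told apart there.

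Of the glucose carriers, Slc2a4 ran in white cells from 5.85 through a median of 62.3 to 109 at day 4 and from 85.9 through 156 to 200 at day 7, and its log2 difference was 1.37 ± 0.41 (adjusted p = 0.0196). The lowest value was array 51, at the floor. Without arrays 45 and 51 the difference was 0.81 (adjusted p = 0.0509), and without white day 7 array 36 it was 1.26 (adjusted p = 0.0536). The call also ended with no filter on dim probe sets (adjusted p = 0.0513) and in a fit of the white arrays alone (0.0529). In brown cells Slc2a4 read 93.2, 119, 62.9, 47.4 and 59.0 at day 4 and 240, 297, 125, 173 and 118 at day 7, and the difference of 1.31 ± 0.48 did not pass (adjusted p = 0.0747). The day 7 arrays of each cell type lay mostly above those of day 4, and the changes differed by -0.06 ± 0.63 between brown and white cells. Slc2a3 (GLUT3) ran in white cells from 27.8 through 45.1 to 58.3 at day 4 and from 54.7 through 68.2 to 77.5 at day 7, a rise of 0.66 ± 0.19 (adjusted p = 0.0154), while its other tested probe set gave -0.10 ± 0.33 (adjusted p = 0.868). Slc2a1 (GLUT1), the widespread basal glucose carrier, gave 0.02 ± 0.40 in brown and -0.47 ± 0.34 in white cells (adjusted p = 0.986 and 0.357). Slc37a4, which moves glucose 6-phosphate into the ER, fell by 0.83 ± 0.20 in white cells (adjusted p = 0.00518), from 57.2 through 72.3 to 118 down to 29.8 through 42.2 to 77.6.

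Slc29a1 (ENT1), an equilibrative nucleoside carrier, ran from 248 through 378 to 445 at white day 4 and from 140 through 200 to 233 at white day 7. The groups did not overlap, which held for 3 Slc genes (Slc29a1, Slc38a4 and Slc35b1) and for 4.79% of all probe sets, and the fall was 0.87 ± 0.15 (adjusted p = 0.000416). A dimmer probe set of the gene went the other way, a rise of 0.64 ± 0.41 that was not called (adjusted p = 0.298). Slc3a2 fell by 0.48 ± 0.12 (adjusted p = 0.00776), from 761 through 961 to 1398 at day 4 to 621 through 714 to 773 at day 7. Of the Slc25 family, Slc25a36, a pyrimidine nucleotide carrier, rose by 0.88 ± 0.27 (adjusted p = 0.0223) and Slc25a5 (ANT2), an ADP/ATP exchanger, fell by 0.61 ± 0.16 (adjusted p = 0.0110). The fall of Slc35e1, an orphan of the nucleotide sugar carrier family, was 0.50 ± 0.17 (adjusted p = 0.0415), and that of Slc9a3r1 (NHERF1), a scaffold for membrane carriers, was 0.56 ± 0.19 (adjusted p = 0.0345). Without arrays 45 and 51 the calls for Slc25a36 (0.60, adjusted p = 0.120), Slc9a3r1 (-0.44, adjusted p = 0.140), Slc35e1 (-0.50, adjusted p = 0.0655) and Slc35b2 (-0.30, adjusted p = 0.103) ended. The call for Slc25a36 also ended without white day 4 array 45 (adjusted p = 0.0507) or white day 7 array 35 (0.0501). That for Slc9a3r1 ended without any 1 of arrays 38, 45, 51 (day 4), 36, 40, 43 and 44 (day 7) (adjusted p up to 0.0788). That for Slc35e1 ended without any 1 of arrays 38, 41, 42, 45 (day 4), 35, 36, 43 and 44 (day 7) (up to 0.118). With no filter on dim probe sets the calls for Slc25a36 (adjusted p = 0.0514), Slc9a3r1 (0.0629) and Slc35e1 (0.0549) ended, and that for Slc35e1 also in a fit of the white arrays alone (0.0585).

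**Figure D1:**
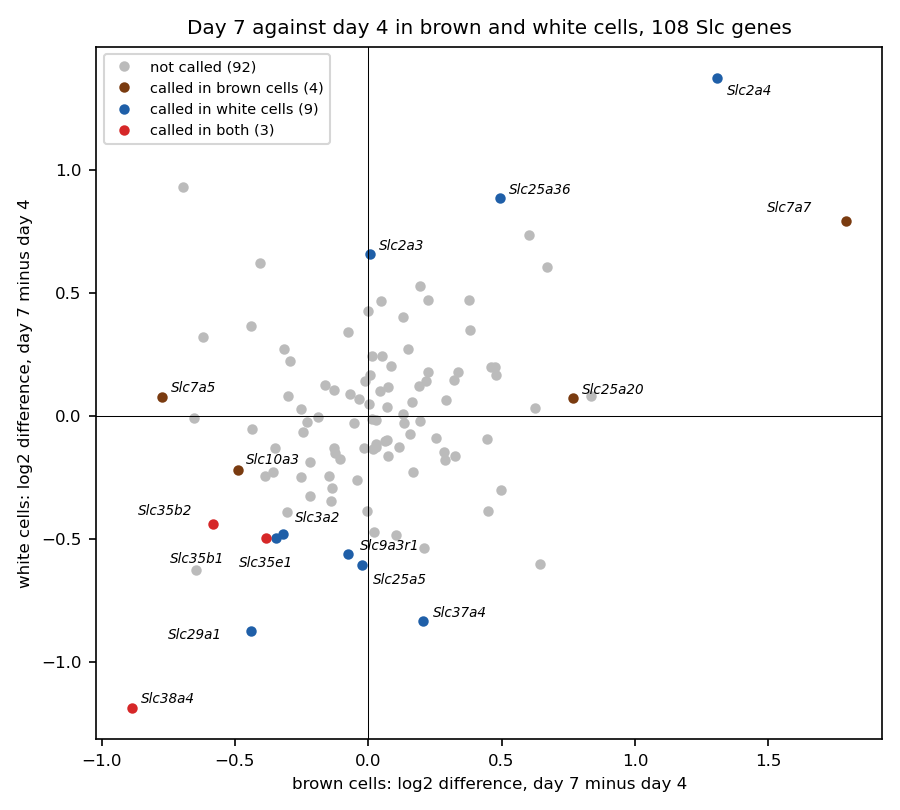
Log2 difference between day 7 and day 4 in brown cells (horizontal axis) and in white cells (vertical axis) for the 108 Slc genes tested, 1 point per gene, coloured by where the gene was called. The 3 genes called in both lie in the lower left corner region, and 92 genes were called in neither.

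Slc38a4, Slc35b1 and Slc35b2 were called lower at day 7 in both cell types, and no Slc gene was called higher in both. The brown and the white comparison have no array in common. The 3 genes made up 60% of the 5 that fell in brown cells and 33.3% of the 9 that fell in white cells, and no gene was called in opposite directions. The overlap was not counted over all genes, so it is not shown to be particular to the carriers. Because they are the members that moved together, the 250 bases before the start of each gene are shown, from RefSeq on GRCm38.p6, 5' to 3' on the strand of the gene. Capitals mark a GGGCGG (the core of the GC box) or a CCAAT box, read on either strand, so that CCAAT on the other strand appears as ATTGG.
Slc38a4, first of 3 annotated starts, chr15:97055957-97056206, minus strand: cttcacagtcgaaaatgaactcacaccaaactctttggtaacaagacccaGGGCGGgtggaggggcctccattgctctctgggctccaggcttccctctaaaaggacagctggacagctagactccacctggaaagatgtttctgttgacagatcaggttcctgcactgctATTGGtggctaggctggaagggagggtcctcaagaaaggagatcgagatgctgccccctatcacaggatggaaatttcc
Slc35b1, chr11:95384606-95384855, plus strand: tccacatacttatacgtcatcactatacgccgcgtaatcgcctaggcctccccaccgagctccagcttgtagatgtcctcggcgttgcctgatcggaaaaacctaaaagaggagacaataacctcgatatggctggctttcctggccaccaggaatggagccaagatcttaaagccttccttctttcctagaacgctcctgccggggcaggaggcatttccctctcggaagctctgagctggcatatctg
Slc35b2, chr17:45563686-45563935, plus strand: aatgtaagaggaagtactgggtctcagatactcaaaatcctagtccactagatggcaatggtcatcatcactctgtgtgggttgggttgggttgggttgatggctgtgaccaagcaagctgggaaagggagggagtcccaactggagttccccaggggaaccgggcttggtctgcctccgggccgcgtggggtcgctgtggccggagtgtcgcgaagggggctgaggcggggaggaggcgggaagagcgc
The window of Slc38a4 held 1 GGGCGG and 1 CCAAT, and those of Slc35b1 and Slc35b2 held neither. Neither CACGTG (an E-box) nor TGATGNAA (an amino acid response element core, N being any base) occurred on either strand of the 3 windows. Over the same 250 bases of 32851 annotated mouse promoters, GGGCGG occurred in 32.7%, CCAAT in 33.8%, CACGTG in 6.02% and TGATGNAA in 3.45%. The motifs overlap none of the others. A match describes the letters only.

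Slc38a4 (SNAT4) takes up neutral amino acids together with sodium. It read 165, 147, 328, 235 and 178 at brown day 4 and 105, 88.0, 132, 118 and 108 at brown day 7, and ran from 170 through 206 to 314 at white day 4 and from 67.5 through 101 to 104 at white day 7. The days did not overlap in either cell type, with falls of 0.89 ± 0.19 in brown (adjusted p = 0.00317) and 1.19 ± 0.17 in white cells (adjusted p = 6.37e-05). Within runs of neighbouring array numbers the difference was -0.70, -1.15 and -0.73 in brown and -1.33, -0.93 and -1.19 in white cells. The -0.73 sets day 4 array 19 alone against day 7 array 22 alone, whose numbers are not adjacent. What the numbers stand for is not stated in the labels.

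Slc35b1 exchanges ATP for ADP across the ER membrane, and Slc35b2 brings the sulfate donor PAPS into the Golgi. Slc35b1 read 808, 739, 1032, 937 and 1024 at brown day 4 and 653, 695, 654, 748 and 707 at brown day 7, a fall of 0.38 ± 0.12 (adjusted p = 0.0352), and 707 through 772 to 1060 against 537 through 578 to 636 in white cells, a fall of 0.49 ± 0.10 (adjusted p = 0.00165). The white days did not overlap and the brown days overlapped by 1 array each. Slc35b2 fell by 0.58 ± 0.15 in brown cells (adjusted p = 0.0133), from 651, 671, 757, 864 and 894 to 452, 419, 626, 510 and 563. In white cells it fell by 0.44 ± 0.13 (adjusted p = 0.0214), from 618 through 714 to 1158 to 499 through 596 to 643. In brown cells the calls for Slc35b1 and Slc10a3 each ended without any 1 of arrays 09, 10, 19 (day 4), 07, 08 and 11 (day 7) (adjusted p up to 0.106 and 0.0923), and in a fit of the brown arrays alone (0.0502 and 0.0507). The call for Slc35b2 ended without brown day 7 array 08 (-0.51, adjusted p = 0.0506) and, in white cells, without day 7 array 36 (-0.39, adjusted p = 0.0619).

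**Figure D2:**
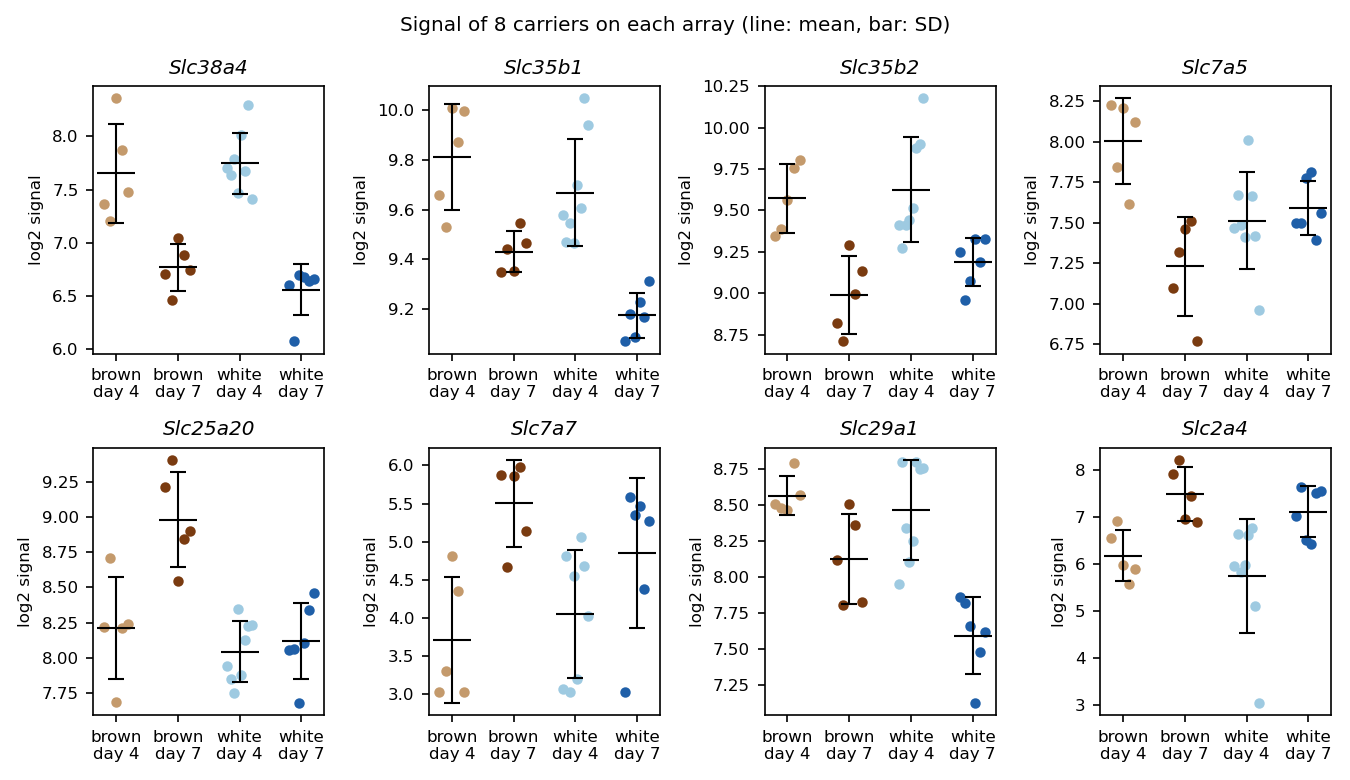
Log2 signal of 8 carriers on each array, by group (points), with the group mean (line) and SD (bar), and with signals below the floor set to it. The brown days do not overlap for Slc38a4, Slc35b2 and Slc7a5, nor the white days for Slc38a4, Slc35b1 and Slc29a1, and the lowest white day 4 point of Slc2a4 is array 51 at the floor.

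Whether a carrier changed by a different amount in brown than in white cells was tested as an interaction, the brown change from day 4 to day 7 minus the white change. No Slc probe set passed limma at an adjusted p below 0.05, beside a background of 0.214% of all probe sets (0.167% higher, 0.0476% lower). At an unadjusted p below 0.05 there were 13 Slc probe sets for 11 genes, and 670 of all probe sets (7.98%). The lowest adjusted p-values belonged to Slc7a5 (-0.85 ± 0.23, adjusted p = 0.144), Slc37a4 (1.04 ± 0.31, adjusted p = 0.204), Slc7a8 (1.25 ± 0.38, adjusted p = 0.234) and Slc25a20 (0.70 ± 0.24, adjusted p = 0.304). Slc7a5, Slc7a7, Slc10a3 and Slc25a20, called in brown cells alone, were thus not shown to change differently in white cells.

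Brown and white cells differed in more Slc genes than the days did. At day 4, 7 genes were higher in brown cells and 21 higher in white cells, 25.9% of the Slc genes against 24.5% of all genes. At day 7 the counts were 7 and 18, 23.1% against 25.4%. By probe set, 29 of 123 were called at day 4 (8 higher and 21 lower in brown) beside a background of 23% (10.8% higher, 12.2% lower), and 32 of 123 at day 7 (11 and 21) beside 25.2% (12.8% higher, 12.3% lower). The share called was thus near that of all probe sets, while the median log2 difference, brown minus white, was -0.12 at either day against 0.01 and 0.002 over all genes. Groups that did not overlap were seen for 11 Slc genes at day 4 and 18 at day 7, beside 7.25% and 18.1% of all probe sets. Slc12a7 and Slc25a39 were higher in brown cells at both days, 28.6% of the brown-higher genes of each. Higher in white cells at both days were 11 genes, 52.4% of those of day 4 and 61.1% of those of day 7, and no gene was called in opposite directions at the 2 days. The days have no array in common, and this overlap too was not counted over all genes.

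Slc genes outside the Slc25 family leaned to white cells and those of the Slc25 family to brown cells. Of the 90 genes outside it, 3 were called higher in brown and 21 higher in white at day 4 (median -0.19), and 4 and 18 at day 7 (median -0.19). The 90 include the 3 adaptors, with 2 of the white-higher calls at day 4 and 1 at day 7. Of the 18 Slc25 genes, 4 were called higher in brown and none higher in white at day 4 (median 0.23), and 3 and none at day 7 (median 0.28). The shares called at day 4 and day 7 were 26.7% and 24.4% outside the family and 22.2% and 16.7% within it, against 24.5% and 25.4% of all genes. At day 7, with the Gapdh ratio as a covariate, 2 of the 25 called genes kept their call, Slc6a8 (-1.57, adjusted p = 0.00916) and Slc1a6 (-2.05, adjusted p = 0.0267), and 26 of 28 did at day 4, all but Slc6a9 (adjusted p = 0.0550) and Slc22a17 (0.0508). The ratio differed between brown and white cells mainly at day 7, so its part in the day 7 calls cannot be told apart from the cell type.

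**Figure D3:**
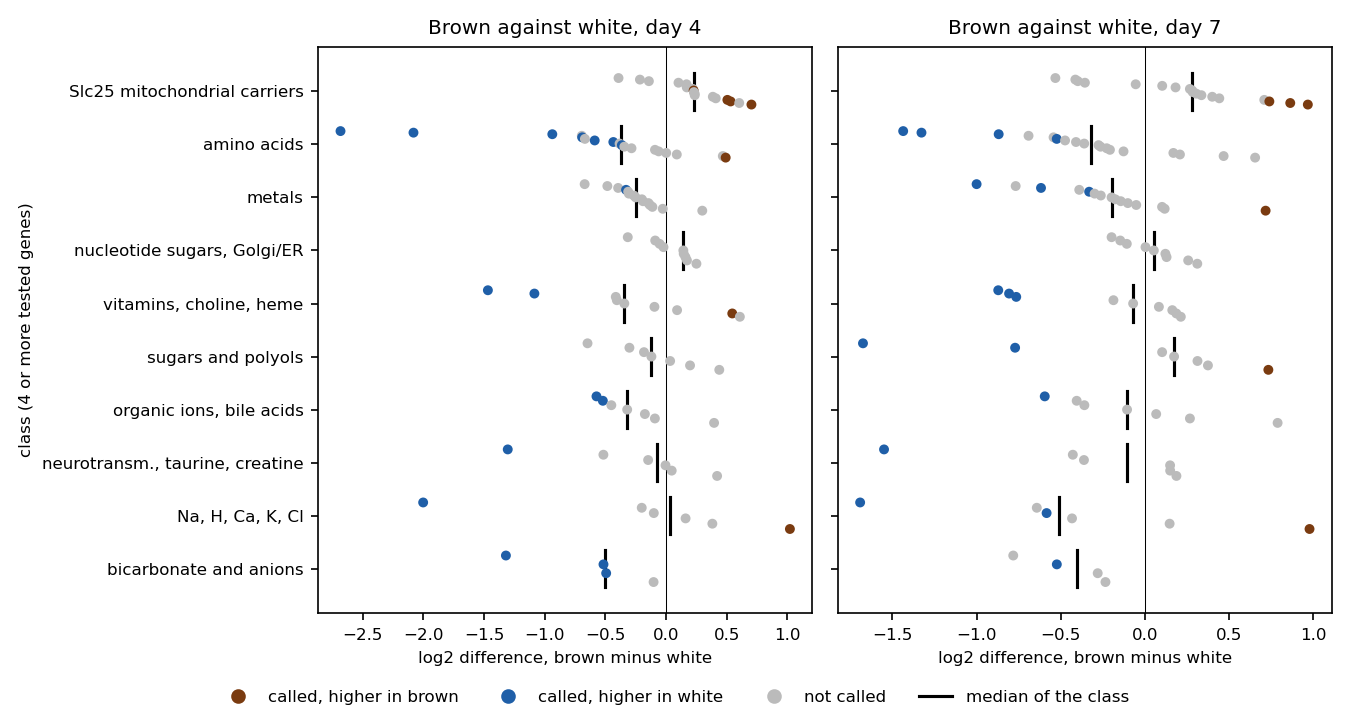
Log2 difference between brown and white cells (horizontal axis, brown minus white) at day 4 and day 7 for each tested gene of the substrate classes with 4 or more genes (rows), with the class median as a black bar. At day 4 the median of the 18 Slc25 carriers lies at 0.23 and that of the 18 amino acid carriers at -0.37, and called genes are brown where higher in brown cells and blue where higher in white cells.

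Of the 18 amino acid carriers, 7 were higher in white cells at day 4 and 1, Slc7a5, higher in brown (median -0.37), and at day 7 the counts were 4 and 0 (median -0.32), beside 3 and 1 of the 15 metal carriers. The share of amino acid carriers called was 44.4% at day 4 and 22.2% at day 7, against 24.5% and 25.4% of all genes. That of the metal carriers at day 7 was 26.7%. Slc7a8 (LAT2), another light chain of Slc3a2, read 11.8, 11, 5.06, 6.52 and 13 at brown day 4 against 46.8 through 72.2 to 95.1 at white day 4. It read 12.5, 12, 22.6, 18.2 and 17.3 at brown day 7 against 22 through 46.5 to 80.3 at white day 7. The log2 differences were -2.68 ± 0.26 (adjusted p = 2.43e-08) and -1.44 ± 0.28 (adjusted p = 0.000425). The groups did not overlap at day 4 and overlapped by 1 array each at day 7. Brown values lay near the floor, and raising it to the 40th percentile gave -1.19 and -0.65, both still called.

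Slc1a6, a sodium-coupled glutamate carrier, read 12.5, 16.1, 17.2, 52.8 and 15.4 at brown day 4 and ran from 70.9 through 79.3 to 104 at white day 4, a difference of -2.08 ± 0.29 (adjusted p = 9.15e-06) with no overlap. At day 7 it read 26.4, 37.4, 63.0, 44.7 and 18.3 in brown and 46.8 through 94.0 to 112 in white cells (-1.33 ± 0.31, adjusted p = 0.00243). With the floor at the 40th percentile its day 4 difference was -1.34. Slc38a2 (SNAT2), an adaptive neutral amino acid carrier, read 200, 120, 190, 221 and 136 at brown day 4 against 167 through 371 to 475 in white cells (-0.94 ± 0.22, adjusted p = 0.00264). At day 7 it read 206, 147, 207, 240 and 176 against 256 through 363 to 447 (-0.87 ± 0.23, adjusted p = 0.00688), and those groups did not overlap. Slc38a10 was lower in brown cells by 0.69 at day 4 (adjusted p = 0.0008) and by 0.52 at day 7 (adjusted p = 0.0115).

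The remaining amino acid calls were smaller and were made at day 4. Slc7a5 read 300, 230, 296, 196 and 278 in brown and 125 through 178 to 258 in white cells, a difference of 0.49 ± 0.16 (adjusted p = 0.0230), and it ended without brown day 4 array 05 (0.43, adjusted p = 0.0712), without array 09 (0.44, adjusted p = 0.0677) and without white arrays 45 and 51 (0.38, adjusted p = 0.0597). At day 7 it gave -0.36 ± 0.16 (adjusted p = 0.112). Slc3a2 was lower in brown cells by 0.43 (adjusted p = 0.0168), Slc7a2, a cationic amino acid carrier, by 0.59 (adjusted p = 0.02) and the glycine carrier Slc6a9 by 0.36 (adjusted p = 0.0431). The Slc3a2 call ended without brown day 4 array 06 (adjusted p = 0.0612) and without white arrays 45 and 51 (0.0529), and that of Slc7a2 without brown day 4 array 05 or 19 (up to 0.0660). That of Slc6a9 ended without any 1 of brown arrays 05, 09, 10 and 19 or white arrays 34, 37, 41, 42 and 51 (up to 0.106). In a fit of the day 4 arrays alone all 4 calls ended, for Slc7a5 (adjusted p = 0.0508), Slc3a2 (0.0544), Slc7a2 (0.0531) and Slc6a9 (0.0836). Quantile normalization ended those for Slc7a2 (0.0577) and Slc6a9 (0.0529), and a random block of runs of adjacent array numbers that for Slc6a9 (0.0895). The neutral amino acid exchangers Slc1a4 and Slc1a5 gave -0.29 ± 0.18 and -0.38 ± 0.22 at day 4 and were not called at either day.

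Among carriers of inorganic ions, Slc8a1, the plasma membrane sodium-calcium exchanger, read 35.8, 16.8, 28.8, 24.3 and 19.1 at brown day 4 and 44.8, 26.5, 48.8, 27.9 and 25.9 at brown day 7. In white cells it ran from 52.5 through 94.9 to 142 at day 4 and from 68.9 through 118 to 146 at day 7. Neither day overlapped, and the differences were -2.00 ± 0.25 (adjusted p = 1.58e-06) and -1.69 ± 0.27 (adjusted p = 3.47e-05). Slc12a7 (KCC4), a potassium-chloride cotransporter, went the other way. It read 115, 65.4, 73.7, 63.5 and 73.2 at brown day 4 against 21.6 through 40.5 to 56.0 in white cells, and 106, 78.3, 112, 85.0 and 41.9 at brown day 7 against 30.2 through 38.6 to 57.8, with differences of 1.02 ± 0.26 (adjusted p = 0.0047) and 0.98 ± 0.27 (adjusted p = 0.00913). Its relative Slc12a4 (KCC1) was lower in brown cells at day 7 by 0.58 ± 0.14 (adjusted p = 0.00318), and Slc12a2 (NKCC1) was not called. All 4 bicarbonate and anion carriers gave negative values at either day, 3 of them called at day 4 and 1 at day 7 (75% and 25%, against 24.5% and 25.4% of all genes). The chloride-bicarbonate exchanger Slc4a2 was lower in brown cells by 0.49 ± 0.12 (adjusted p = 0.00417) at day 4 and by 0.52 ± 0.13 (adjusted p = 0.0038) at day 7, and its relative Slc4a3 by 0.52 (adjusted p = 0.0104) at day 4. The sodium-bicarbonate cotransporter Slc4a4 read 28.3, 9.35, 27.2, 17.7 and 4.75 at brown day 4 against 26.3 through 36.4 to 72.3 (-1.32 ± 0.31, adjusted p = 0.0026), with 1 brown array at the floor and -0.49 (adjusted p = 0.0471) once it was raised to the 40th percentile.

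The mean log2 signal of 5 smooth muscle and pericyte markers was also higher in white cells, from 7.81 to 9.14 against 7.02 to 7.42 in brown cells at day 4 and from 9.04 to 9.89 against 8.04 to 8.55 at day 7, with none at the floor on all arrays of a group. By marker, 3 of the 5 were called lower in brown cells at day 4, and 3 lower and 1 higher at day 7. Of all probe sets, 23% were called at day 4 and 25.2% at day 7. The 8 macrophage markers ran from 4.51 to 5.63 in white against 4.34 to 4.60 in brown cells at day 4, and from 4.93 to 5.76 against 4.71 to 5.13 at day 7. Of the 4 tested, 3 were called lower in brown cells at either day. The mean of 7 striated muscle markers was higher in brown cells, from 7.05 to 7.65 against 5.2 to 5.85 at day 4 and from 6.41 to 6.76 against 5.60 to 6.17 at day 7. By marker, 7 of the 7 were called higher in brown cells at day 4 and 3 at day 7. The 5 endothelial markers ran from 4.74 to 5.80 in brown against 4.30 to 5.47 in white cells at day 4, and from 5.45 to 6.22 against 3.87 to 5.05 at day 7, with 2 of the 4 tested called higher in brown cells at either day. Of all probe sets, 12.1% were called with day in brown cells and 19% in white cells. With day, 3 of 5 smooth muscle and pericyte markers and 1 of 4 tested macrophage markers rose in each cell type. In brown cells 1 of 4 tested endothelial markers rose and 3 of 7 striated muscle markers fell, while in white cells 2 of 7 striated muscle markers rose. The part of these cells in the differences of Slc8a1, Slc7a8 and the other carriers, between cell types or between days, was not tested. In RNA of whole cultures, fewer cells of a type and less RNA per cell cannot be told apart.

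Slc6a8, the creatine importer, read 74.1, 53.1, 106, 93.9 and 132 at brown day 4 against 193 through 210 to 263 in white cells, and 83.4, 108, 105, 142 and 84.3 at brown day 7 against 216 through 315 to 381. The differences were -1.30 ± 0.18 (adjusted p = 8.18e-06) and -1.55 ± 0.19 (adjusted p = 1.32e-06), with no overlap at either day. The other 5 genes of its class, the neurotransmitter and taurine carriers, were not called. Of 5 creatine enzymes tested, Ckb (brain-type creatine kinase) was lower in brown cells at day 4 (-0.61 ± 0.19, adjusted p = 0.0244) and day 7 (-0.90 ± 0.21, adjusted p = 0.00207), and Gamt, which makes creatine, was higher in brown cells at day 7 (0.64 ± 0.22, adjusted p = 0.0334).

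Vitamin and choline carriers gave 2 calls higher in white and 1 higher in brown cells at day 4 among 9 genes, and 3 and 0 at day 7. The share called was 33.3% at either day, against 24.5% and 25.4% of all genes. Slc46a1, the proton-coupled folate carrier, read 18.5, 9.73, 23.2, 22.6 and 23.7 at brown day 4 against 33.7 through 53.8 to 65.9 in white cells (-1.47 ± 0.25, adjusted p = 9.87e-05). At day 7 it read 29.2, 15.9, 40.6, 24.8 and 41.8 against 44.1 through 50.1 to 66.9 (-0.87 ± 0.26, adjusted p = 0.0155), a call that ended without brown day 7 array 08 (-0.66, adjusted p = 0.0674). Neither day overlapped. With the floor at the 40th percentile the day 4 value was -0.83. Slc19a1, the reduced folate carrier, was higher in brown cells at day 4 by 0.55 ± 0.15 (adjusted p = 0.0106) and gave 0.16 ± 0.16 at day 7 (adjusted p = 0.509). Its other tested probe set, which lacks the suffix for related sequences, had medians of 196 and 150 in brown against 52 and 34 in white cells at day 4 and day 7, with differences of 1.94 ± 0.36 (adjusted p = 0.000288) and 2.11 ± 0.38 (adjusted p = 0.000203). The choline carrier Slc44a2 was lower in brown cells by 1.09 ± 0.21 (adjusted p = 0.000402) at day 4 and by 0.81 ± 0.22 (adjusted p = 0.00801) at day 7, and Slc44a1 by 0.76 ± 0.21 (adjusted p = 0.00795) at day 7.

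**Figure D4:**
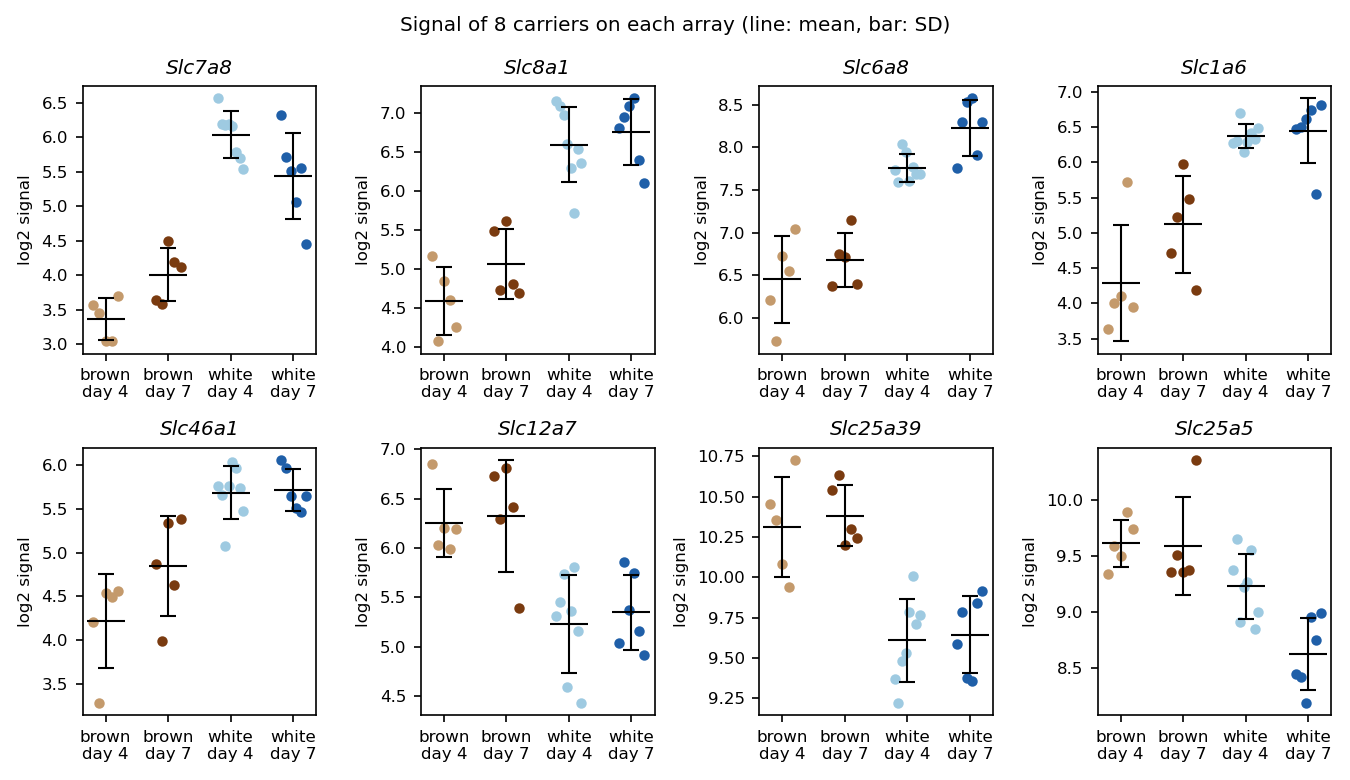
Log2 signal of 8 carriers on each array, by group (points), with the group mean (line) and SD (bar), and with signals below the floor set to it. White arrays lie above brown arrays at either day for Slc8a1, Slc6a8 and Slc46a1, and Slc12a7, Slc25a39 and Slc25a5 have higher means in brown cells.

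By the representative (brightest) probe set, the Slc25 carriers called between the cell types were higher in brown cells each time, 4 of 18 at day 4 and 3 of 18 at day 7. Slc25a39, which brings glutathione into mitochondria, was called at both days. It read 1401, 1308, 1086, 980 and 1698 at brown day 4 against 597 through 788 to 1031 in white cells, and 1488, 1587, 1179, 1260 and 1210 at brown day 7 against 657 through 825 to 966. The differences were 0.70 ± 0.14 (adjusted p = 0.000695) and 0.74 ± 0.15 (adjusted p = 0.00068), and the day 7 groups did not overlap. Slc25a20 read 594, 678, 374, 458 and 477 in brown against 205 through 272 to 352 in white cells at day 7, with no overlap (0.86 ± 0.17, adjusted p = 0.000516), after 0.17 ± 0.16 at day 4 (adjusted p = 0.499). Slc25a5 read 655, 728, 655, 665 and 1316 in brown against 291 through 389 to 508 in white cells at day 7 (0.97 ± 0.18, adjusted p = 0.000337). A further probe set of Slc25a5 gave 0.77 (adjusted p = 0.00105) and another 0.03 ± 0.51 (adjusted p = 0.975). The probe set of the call carries the suffix for sequences shared within a family, and the first of these the suffix for probes picked under relaxed rules.

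The other Slc25 calls, all at day 4, were Slc25a10, a dicarboxylate carrier (0.53 ± 0.17, adjusted p = 0.0282), Slc25a17, a peroxisomal member of the family (0.50 ± 0.17, adjusted p = 0.0310), and Slc25a4 (ANT1), an ADP/ATP exchanger (0.23 ± 0.08, adjusted p = 0.0465). Slc25a4 read 2632, 2514, 2611, 2436 and 2176 at brown day 4 against 1894 through 2131 to 2272 in white cells, with 1 brown array inside the white range. Its call ended without any 1 of 10 of the arrays, all but brown array 19 and white arrays 38 and 45 (adjusted p up to 0.116), and without arrays 45 and 51 together (0.21, adjusted p = 0.0554). That of Slc25a10 ended without any 1 of brown arrays 05 and 06 and white arrays 33 and 37 (up to 0.0942), and without arrays 45 and 51 (0.0620). That of Slc25a17 ended without any 1 of brown arrays 05, 06, 09 and 10 and white arrays 33 and 37 (up to 0.0978). The calls for Slc25a4 and Slc25a17 ended with runs of adjacent array numbers as a random block (adjusted p = 0.0859 and 0.0756) and in a fit of the day 4 arrays alone (0.116 and 0.0684). Quantile normalization ended that for Slc25a4 (0.125), and no filter on dim probe sets those for Slc25a10 (0.0518) and Slc25a17 (0.0505). Striated muscle, whose markers were higher in brown cells (above), also expresses Slc25a4, and its part in the difference was not tested. The citrate carrier Slc25a1 (0.24 ± 0.17 at day 4 and 0.28 ± 0.18 at day 7), the oxoglutarate carrier Slc25a11 (0.17 ± 0.16 and 0.27 ± 0.17) and the phosphate carrier Slc25a3 (-0.39 ± 0.42 and 0.44 ± 0.45) were not called.

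Sugar carriers differed between the cell types at day 7. Slc2a3 read 46.3, 23.8, 45.9, 38.8 and 43.1 in brown against 54.7 through 68.2 to 77.5 in white cells (-0.77 ± 0.21, adjusted p = 0.00811), and Slc37a4 68.8, 78.4, 66.9, 58.0 and 93.6 against 29.8 through 42.2 to 77.6 (0.73 ± 0.23, adjusted p = 0.0178). The fructose carrier Slc2a5 read 5.41, 7.04, 16.2, 25.2 and 25 in brown against 34.7 through 47.1 to 63.6 in white cells (-1.68 ± 0.55, adjusted p = 0.0262). Here 2 brown arrays were at the floor, and raising it to the 40th percentile gave -0.70. The call for Slc2a5 ended without brown day 7 array 07 or 08 or white day 7 array 39 (adjusted p up to 0.0772), with no filter on dim probe sets (0.0564) and with the block of adjacent array numbers (0.0845), and that for Slc37a4 without brown array 22 (0.0536) or white array 39 (0.0511). Slc2a4 did not differ beyond its spread at day 4 (0.44 ± 0.43, 95% interval -0.46 to 1.34) or day 7 (0.37 ± 0.46, -0.59 to 1.32). The nucleoside carrier Slc29a1 was higher in brown cells at day 7 by 0.53 ± 0.17 (adjusted p = 0.0241), a call that ended without brown day 7 array 11 or 12 or white day 7 array 40 (up to 0.0826) and with the block of adjacent array numbers (0.49, adjusted p = 0.0739). The dimmer probe set of Slc29a1 gave -0.28 ± 0.46 at day 7 (adjusted p = 0.716). None of the 9 nucleotide sugar and related carriers was called at either day.

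Few carriers of lactate and fatty acids were tested. The monocarboxylate class had 3 member genes on the array, 2 of them tested. The fatty acid class had 4, 1 of them tested, with Slc27a1 left out by the member rule. Slc16a1 (MCT1), which moves lactate and pyruvate with a proton, read 16.3, 25.6, 1.89, 17.6 and 8.96 at brown day 4 against 18.4 through 27 to 50 in white cells (-0.95 ± 0.31, adjusted p = 0.0279). The value was -0.14 (adjusted p = 0.485) with the floor at the 40th percentile, and the call ended without any 1 of brown arrays 09 and 19 and white arrays 33 and 37 (adjusted p up to 0.102). It also ended under quantile normalization (0.0718), with the block of adjacent array numbers (0.0707) and in a fit of the day 4 arrays alone (0.0648). At day 7 it gave -0.88 ± 0.33 (adjusted p = 0.0501). Slc27a4 (FATP4), a fatty acid carrier and acyl-CoA synthetase, read 34.5, 10.9, 60.0, 46.8 and 65.0 at brown day 4 against 69.8 through 76.6 to 100.1 in white cells, with no overlap (-1.11 ± 0.29, adjusted p = 0.00569), and -0.67 without brown day 4 array 06 (adjusted p = 0.0197). At day 7 it gave -0.76 ± 0.30 (adjusted p = 0.0654).

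Of the 15 metal carriers, 1 was called at day 4 and 4 at day 7 (6.67% and 26.7%, against 24.5% and 25.4% of all genes). Slc39a7, a zinc carrier of the ER and Golgi, was lower in brown cells by 0.33 at either day (adjusted p = 0.0296 and 0.0365). Slc39a8, which imports zinc and manganese, read 35.1, 10.2, 28.7, 39.8 and 22.3 at brown day 7 against 41.6 through 47.2 to 61.1 (-1.0 ± 0.30, adjusted p = 0.0164), and -0.68 (adjusted p = 0.0757) without brown array 08. The zinc carrier Slc39a6 was lower in brown cells at day 7 by 0.62 (adjusted p = 0.0490). Slc11a1 (Nramp1), an iron and manganese carrier known from macrophages, read 66.9, 109, 79.5, 111 and 107 at brown day 7 against 47 through 51.3 to 73.9 in white cells (0.72 ± 0.22, adjusted p = 0.0178), while 3 of 4 tested macrophage markers were lower in brown cells. Its call ended without brown day 7 array 12 (adjusted p = 0.0501) and with the block of adjacent array numbers (0.0502). The day 7 call for Slc39a6 ended without any 1 of 9 arrays, all but brown arrays 11 and 12 (adjusted p up to 0.140), and without arrays 45 and 51 (0.0519). Raising the floor to the 40th percentile (0.0515) ended it as well, as did no filter (0.0816), quantile normalization (0.0512) and the block (0.0711). For Slc39a7, the day 7 call ended without any 1 of arrays 07, 08, 22, 36, 39, 40 and 44 (up to 0.140), and the day 4 call without any 1 of arrays 05, 06, 19, 33 and 37 (up to 0.0951). The day 7 call also ended with the block (0.0539), and the day 4 call in a fit of the day 4 arrays alone (0.0505). A dimmer probe set of the zinc importer Slc39a1 was higher in brown cells at day 7 (1.53 ± 0.51, adjusted p = 0.0289), while the bright one gave -0.26 ± 0.11 (adjusted p = 0.0701). The iron importer Slc11a2 was not called.

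The organic ion, bile acid and peptide carriers gave 2 calls at day 4 and 1 at day 7 among 7 genes (28.6% and 14.3%, against 24.5% and 25.4% of all genes), all lower in brown cells. These were Slc10a6, a steroid sulfate carrier (-0.57 ± 0.16, adjusted p = 0.00994), Slc22a17, a receptor for lipocalin 2 (-0.52 ± 0.17, adjusted p = 0.0266), and, at day 7, Slc22a18 (-0.60 ± 0.21, adjusted p = 0.0336). The Slc22a17 call ended without any 1 of brown arrays 09 and 10 and white arrays 34 and 37 (up to 0.0677), and that of Slc22a18 without any 1 of brown arrays 07 and 12 and white arrays 36, 40 and 44 (up to 0.109). Both ended with the block of adjacent array numbers (0.0574 and 0.0861). The carnitine importer Slc22a5 was not called in any comparison. Of the adaptors, Slc9a3r1 read 122, 148, 108, 203 and 235 at brown day 4 against 398 through 485 to 696 in white cells, and 186, 127, 93.1, 144 and 225 at brown day 7 against 290 through 329 to 413. Neither day overlapped (-1.66 ± 0.20, adjusted p = 5.91e-07, and -1.18 ± 0.21, adjusted p = 0.000157). Slc9a3r2 (NHERF2) was lower in brown cells at day 4 (-0.74 ± 0.20, adjusted p = 0.00974) and gave 0.06 ± 0.22 at day 7.

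Enzymes and partners that work with the carriers, none of them members, were described from lists. Of all probe sets, 12.1% were called with day in brown cells and 19% in white cells. Between the cell types 23% were called at day 4 and 25.2% at day 7. Of the 3 carnitine enzymes tested, Crat (0.78 ± 0.19, adjusted p = 0.00568) and Cpt2 (0.46 ± 0.15, adjusted p = 0.0385) rose in brown cells with day, as the acylcarnitine carrier Slc25a20 did. None was called in white cells, where Crat gave 0.44 ± 0.16 (adjusted p = 0.0534) and Cpt2 0.21 ± 0.12 (adjusted p = 0.254). Neither was shown to change differently in the 2 cell types (brown minus white 0.35 ± 0.24 and 0.25 ± 0.19, adjusted p = 0.7945 and 0.822). Cpt2 was also higher in brown than in white cells (0.52 and 0.77 at day 4 and day 7, adjusted p = 0.00519 and 0.000212), and Cpt1a lower (-0.76 and -0.66, adjusted p = 0.000534 and 0.00283). Of 7 lactate and pyruvate enzymes 5 rose and none fell in brown cells, among them Pdk4 (1.51 ± 0.33, adjusted p = 0.00272) and Ldhb (1.05 ± 0.23, adjusted p = 0.00301), and 3 rose and none fell in white cells. Between the cell types 2 were higher and 1 lower in brown cells at day 4, and 4 higher and none lower at day 7. Of 5 genes of citrate export to fatty acid synthesis, 2 rose in brown and 3 in white cells, with Fasn, the fatty acid synthase, at 1.18 ± 0.25 and 1.65 ± 0.22 (adjusted p = 0.00257 and 2.63e-05), while the citrate carrier Slc25a1 gave 0.03 ± 0.19 and -0.02 ± 0.16 and was not called. At day 7 Acly (-0.63 ± 0.19, adjusted p = 0.0141), Fasn (-0.82 ± 0.24, 0.0145) and Me1 (-1.41 ± 0.24, 0.000106) were lower in brown cells. Cs was higher in brown cells at day 4 (0.66 ± 0.15, adjusted p = 0.00175) and day 7 (0.80 ± 0.16, 0.000438), and Me1 lower at day 4 (-0.72 ± 0.23, 0.0232). Of 7 transporter partners and pumps tested, 2 rose and none fell with day in each cell type. Emb, a chaperone of lactate carriers, rose by 1.05 ± 0.27 in brown (adjusted p = 0.00993) and 1.01 ± 0.23 in white cells (adjusted p = 0.0033). The rise of Bsg was called in brown cells alone (0.40 ± 0.11, adjusted p = 0.0211) and that of Cd36 in white cells alone (1.17 ± 0.34, 0.0181). Aqp7 was higher in brown than in white cells at day 4 and day 7 (1.11 and 0.89, adjusted p = 0.000348 and 0.00419). Bsg was so at day 7 (0.49, adjusted p = 0.00169). Of the 9 amino acid response genes, 2 rose and 1 fell in brown cells, and 1 rose and 1 fell in white cells. Between the cell types 3 were higher and 1 lower in brown cells at either day. Psat1, of serine synthesis, fell in both (-0.86 ± 0.15 and -0.57 ± 0.13, adjusted p = 0.000404 and 0.00269), and Ddit3, a stress-induced transcription factor, rose in both (0.81 ± 0.21 and 0.73 ± 0.18, adjusted p = 0.0112 and 0.00588). Of 6 genes of iron and zinc handling, 1 rose and none fell with day in brown cells, and 1 rose and 1 fell in white cells. The gene that rose was Mt2 in both cell types (0.66 and 0.70, adjusted p = 0.0435 and 0.00913). Between the cell types none was called at day 4, and 2 were higher and none lower in brown cells at day 7. The transferrin receptor Tfrc was among these 2 (0.86 ± 0.24, adjusted p = 0.00913). Of 5 shuttle enzymes, Gpd1, a cytosolic glycerol phosphate dehydrogenase, rose by 1.88 and 1.87 in brown and white cells (adjusted p = 0.00388 and 0.000933). Mdh2 was higher in brown cells at day 4 (0.67 ± 0.12, adjusted p = 0.000176) and day 7 (0.79 ± 0.13, 4.06e-05). Gpd2 was lower in brown cells at day 7 (-0.98 ± 0.35, adjusted p = 0.0386).

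The 61 probe sets that were not tested belonged in part to 42 genes with no tested probe set. Their highest group median was a signal of 49.7, and 3 genes were at the floor on all 24 arrays. Among the 42 were the fatty acid carriers Slc27a2, Slc27a3 and Slc27a5, the cationic amino acid carrier Slc7a1, the cystine importer Slc7a11 and the zinc exporter Slc30a1. The mean log2 signal of Slc27a3 was 5.07 ± 0.97 (SD) at brown day 4. It was 3.58 at brown day 7, 3.45 at white day 4 and 3.30 at white day 7, and the difference was not tested. Of 14 genes with several tested probe sets, 8 had probe sets that differed in a call, in part described above. At day 7 a dim probe set of the taurine carrier Slc6a6 was lower in brown cells (-1.21 ± 0.44, adjusted p = 0.0467) while the bright one gave 0.15 ± 0.22, and a probe set of Slc25a51, which carries NAD, was lower in brown cells (-0.49 ± 0.16, adjusted p = 0.0280) while the other gave 0.34 ± 0.15 (adjusted p = 0.103).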

How the data were processed

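The deposited table holds 1 column of linear signal intensities per array, as the authors made them. Per the submitters' processing notes the tool was MAS5, with no version stated. It subtracts mismatch signal, which leaves dim values noisy. All arrays were rescaled to a 2% trimmed mean of 150, signals below the 20th percentile of all values (8.21) were raised to it, and values were then put on the log2 scale. A probe set was tested if it exceeded the 40th percentile of its array on at least 5 arrays. Without 66 controls this left 8397, of whose values 1.56% lay at the floor (1.59% for Slc probe sets). The platform annotation, possibly old, gave a single symbol to 10855 probe sets, more than 1 to 396 and none to 1237. A probe set naming several Slc genes was no member. Each gene stands for its brightest tested probe set.

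Limma 3.58.1 in R 4.3.3 fitted the 4 group means (lmFit, then eBayes with trend) with 20 residual degrees of freedom. Tests were two-sided, with Benjamini-Hochberg adjustment over all 8397 probe sets in each comparison and a threshold of 0.05. The code was tested on simulated data. The members and lists were chosen with earlier results of these data known. Named with values were the 15 called genes with the largest difference in each comparison (10 for the difference of changes), any at the floor on all arrays of 1 group and called, and a panel of 58 symbols, of which 46 are on the array and 39 were tested. Slc10a6, Slc19a1, Slc22a17, Slc4a2 and Slc4a3 at day 4, and Slc25a39, Slc37a4, Slc22a18, Slc12a4, Slc38a10 and Slc4a2 at day 7, fall outside this rule and were named after their values were seen, as were genes of the partner and enzyme lists. Alternatives changed the floor, the filter, the normalization, array weights, the arrays in the fit, a Gapdh covariate and a block of adjacent array numbers.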

Additional observations from a re-analysis of the deposited data

Results flagged for a closer look

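In each group of 5 to 8 arrays the highest or lowest signal of a named gene was compared with the rest of its group by Dixon's criterion at the 95% level. Of 248 groups examined, 24 held an array that stood apart, 6 at brown day 4, 8 at brown day 7, 4 at white day 4 and 6 at white day 7. Chance alone flags about 1 in 20 groups. Each value is given with the range of the other arrays of its group.

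Brown day 4 array 19 stood apart for Slc25a17 (210.4 against 378 to 447) and Slc35a1 (104 against 144 to 164). Brown day 4 array 06 stood apart for Slc46a1 (9.73 against 18.5 to 23.7) and Slc4a2 (274 against 324 to 346). Brown day 4 array 05 stood apart for Slc12a7 (115 against 63.5 to 73.7). Brown day 4 array 10 stood apart for Slc1a6 (52.8 against 12.5 to 17.2). Brown day 7 array 22 stood apart for Slc22a17 (67.9 against 108 to 129.7), Slc25a36 (76.8 against 177 to 237), Slc25a5 (1316 against 655 to 728), Slc30a4 (98.6 against 146 to 160.0) and Slc6a6 (159 against 334 to 378). Brown day 7 array 08 stood apart for Slc10a6 (124 against 179 to 203) and Slc2a3 (23.8 against 38.8 to 46.3). Brown day 7 array 07 stood apart for Slc11a2 (139 against 104 to 109). White day 4 array 51 stood apart for Slc2a4 (5.85 against 34.2 to 109) and Slc38a10 (696 against 992 to 1275). White day 4 array 34 stood apart for Slc10a3 (163 against 227 to 284). White day 4 array 42 stood apart for Slc39a6 (82.0 against 164 to 259). White day 7 array 43 stood apart for Slc1a6 (46.8 against 88.8 to 112) and Slc4a3 (159.6 against 194 to 216). White day 7 array 39 stood apart for Slc20a1 (43.4 against 99.8 to 126). White day 7 array 44 stood apart for Slc25a3 (103 against 16.7 to 31.4). White day 7 array 35 stood apart for Slc2a1 (9.59 against 52.8 to 93.8). White day 7 array 36 stood apart for Slc38a4 (67.5 against 97.3 to 104).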

How the results depend on the processing

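The 5 comparisons were repeated with 10 alternatives (9 for the difference of changes) and with each array left out in turn. With the Gapdh 3' to 5' ratio as a covariate, the white day 7 against day 4 count of Slc probe sets went from 14 to 0 (12 at an unadjusted p below 0.05, limma) and that of brown against white at day 7 from 32 to 3. With runs of adjacent array numbers as a random block (correlation 0.201), the latter was 21. Leaving out 1 array gave 4 to 8 calls for brown day 7 against day 4 (7 with all arrays, 4 without brown day 4 array 19 or brown day 7 array 08), 10 to 16 for white cells, 22 to 30 and 24 to 30 for brown against white at day 4 and day 7, and 0 to 0 for the difference of changes. Without white day 4 arrays 45 and 51 the counts were 9, 10, 30 and 33. The cause of these shifts was not tested. Other settings kept each count within 1.5 times its value, and no named gene turned its direction where it was called, but single calls were lost, as given with each gene. Of the called genes, a fit of only the groups compared lost 2 of 7 in brown and 2 of 12 in white cells and 8 of 28 between cell types at day 4. The block lost 5 of 28 at day 4 and 6 of 25 at day 7, no filter lost 4 of 12 in white cells and 2 of 28 and 2 of 25 between cell types, and quantile normalization lost 4 of 28 and 1 of 25. The floor at the 40th percentile lost 1 of 28 and 1 of 25. Groups share no array number, so the runs of adjacent numbers gave the blocked fit in place of a pairing. In it brown arrays 19 and 22, whose numbers are not adjacent, shared a block, and white arrays 45 and 51 were each a block alone. Differences with dim brown signals shrink as the floor is raised.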
